A study of Homo sapiens with 14 samples.

Results

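The retinoblastoma (RB) pocket proteins and the E2F transcription factors were examined at the RNA level in human prostate cancer cell lines. All 10 genes, chosen by name, were found in both expression tables: the pocket protein genes RB1, RBL1 and RBL2, the activator E2Fs E2F1, E2F2 and E2F3, the repressor E2Fs E2F4 and E2F5, and the atypical E2Fs E2F7 and E2F8. The tables together list 49952 distinct gene names, 24199 for DU145 and 44591 for LNCaP. The study addressed the role of PAX6, a developmental transcription factor, in the conversion of prostate cancer cells towards a neuroendocrine state. LNCaP is an androgen-sensitive prostate cancer line, and its labels give a wild-type genotype. LNCaP-ENZ cells are the same line treated for 30 days with enzalutamide, a drug used against prostate cancer, and kept continuously in 20 µM of the drug, and each of these arms has 1 library. DU145 is an androgen-insensitive prostate cancer line, known to carry a truncating RB1 mutation, so that its RB1 transcript does not report functional RB protein. DU145 cells infected with lentivirus carried either a non-target short hairpin RNA (shCON, 3 libraries) or a hairpin against PAX6 (shPAX6, 3 libraries). Which of the study's PAX6 hairpins each library carries is not stated, nor whether the libraries of a group came from separate cultures, so p-values measure only the spread between these libraries. The 6 ATAC-seq samples are not analysed here.

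RB and its relatives p107 (from RBL1) and p130 (from RBL2) bind E2F factors and hold E2F target genes repressed until cyclin-dependent kinases (CDKs) phosphorylate the pocket proteins late in G1. Free E2F1, E2F2 and E2F3 then drive the genes of DNA replication. E2F4 and E2F5 bind mainly p107 and p130, and with p130 and the MuvB proteins they form the DREAM complex, which silences G1/S and G2/M genes in quiescent cells. E2F7 and E2F8 repress without pocket proteins. Loss of RB1 is frequent in neuroendocrine prostate cancer.

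Several of these genes hold an E2F recognition word in the bases upstream of their starts. A search of the 150 bases upstream of each gene start in GRCh37 for the E2F words TTTCCCGC, TTTGGCGC, TTTCGCGC and TTTGCCGC, on both strands, found a match in 4 of 10 family members, RB1, E2F1, E2F2 and E2F3, against 402 of 19233 protein-coding genes (2.09%). All 3 activator E2Fs and RB1 held a match, whereas RBL1, RBL2, E2F4, E2F5, E2F7 and E2F8 had none of these letters in the window. Starts are those of the authors' LNCaP table. The 4 windows with a match are shown because they mark the members that hold a word their own family recognises. They are written 5′ to 3′ on the strand of the gene, with the match in capitals and the gene start just after the last base.
RB1, chr13:48877733-48877882, plus strand: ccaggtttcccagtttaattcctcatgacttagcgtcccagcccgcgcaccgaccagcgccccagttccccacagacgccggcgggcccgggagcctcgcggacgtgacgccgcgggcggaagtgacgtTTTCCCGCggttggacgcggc
E2F1, chr20:32274211-32274360, minus strand: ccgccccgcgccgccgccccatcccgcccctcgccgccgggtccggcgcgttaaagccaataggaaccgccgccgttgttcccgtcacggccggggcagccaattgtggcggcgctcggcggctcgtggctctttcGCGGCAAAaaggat
E2F2, chr1:23857713-23857862, minus strand: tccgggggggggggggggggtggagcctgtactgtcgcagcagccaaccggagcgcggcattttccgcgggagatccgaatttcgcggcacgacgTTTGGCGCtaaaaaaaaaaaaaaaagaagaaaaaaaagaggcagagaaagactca
E2F3, chr6:20401987-20402136, plus strand: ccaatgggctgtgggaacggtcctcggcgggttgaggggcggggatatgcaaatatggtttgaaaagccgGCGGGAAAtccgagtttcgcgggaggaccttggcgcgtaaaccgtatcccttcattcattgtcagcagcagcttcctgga
In RB1 and E2F2 the word read on the gene's strand, and in E2F1 and E2F3 on the other strand. The first base of the match lay 21 bases upstream of the start in RB1, 14 in E2F1, 55 in E2F2 and 80 in E2F3. A match describes the letters of the window and not a bound site, and a missing match does not show an absence of E2F control. Among 25 G1/S E2F target genes 7 windows held a word (28%), and among 17 G2/M targets of DREAM 0 did.

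The cell lines matched their labels. Prostate-specific antigen (KLK3) had 1817 counts in LNCaP and 1186 in LNCaP-ENZ. In DU145, KLK2, FOLH1 and TMPRSS2 were listed at 0, whereas the epithelial keratin KRT8 lay between 635 and 993 FPKM (fragments per kilobase of transcript, scaled to library size). Of 5 leukocyte markers, the LNCaP library held 56 counts in all and the LNCaP-ENZ library 70, and of 5 in DU145 only CD14 was above the filter, with a summed level of 0.749 to 0.908 FPKM in shCON and 0.436 to 0.922 in shPAX6. Counts assigned to genes totalled 20468001 in LNCaP and 17945722 in LNCaP-ENZ. The depth of the DU145 libraries is unknown, since only FPKM were used.

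E2F4 and E2F1 supplied most E2F RNA in both lines. In shCON DU145 cells E2F4 averaged 65.7 ± 3.41 FPKM (SD, n = 3) and E2F1 32.9 ± 0.704 FPKM. By the mean of all 6 libraries, E2F4 was at the 90.5th and E2F1 at the 80.9th percentile of the 13574 tested features, and E2F7 at the 15.2th. E2F4 alone made up 54.9%, 57.3% and 55.0% of the summed FPKM of the 7 E2F members in the shCON libraries. RBL2 (7.27 ± 1.14), E2F3 (6.95 ± 0.683), RB1 (5.70 ± 1.14), E2F2 (4.32 ± 0.350) and E2F5 (4.23 ± 0.512) followed, each with a range that overlapped that of the next. RBL1 at 2.84 ± 0.675 and E2F8 at 2.68 ± 0.428 overlapped each other below them. E2F7 was lowest at 1.06 ± 0.219 FPKM, and its range touched no other member's.

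In LNCaP the order at the top was the reverse. E2F1 had 36.6 TPM (counts per gene length, rescaled per library) and E2F4 28.3 TPM, with counting intervals of 34.9 to 38.2 and 26.7 to 30.0 that did not overlap. E2F1 thus held 39.3% and E2F4 30.4% of the E2F members' summed TPM. RBL2 (12.8 TPM) was the leading pocket protein gene. RB1 at 8.44 TPM, E2F2 at 7.35, E2F3 at 7.02 and E2F5 at 6.60 each overlapped the next in line. E2F7 (4.38 TPM) overlapped RBL1 (4.35 TPM), and E2F8 was lowest at 2.85 TPM. The 2 tables were normalized separately, so the order is compared and not the levels.

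In LNCaP-ENZ the transcripts of RB1 and RBL2 were lower than in LNCaP, and those of E2F2 and E2F4 were higher. RB1 had a log2 ratio of -0.80 and RBL2 of -0.75. E2F2 had a log2 ratio of 0.82 and E2F4 of 0.59. With 1 library per arm none of these differences has a replicate check or a test, and the intervals given below cover counting error only. In such bulk RNA, fewer expressing cells and less RNA per cell cannot be told apart.

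RB1 (chr13:48877883-49056026, plus strand), the tumour suppressor, had 790 counts in LNCaP and 396 in LNCaP-ENZ. That was 8.44 TPM against 4.55 TPM, and the log2 ratio of CPM (counts scaled to the library total, plus a pseudocount of 0.1) was -0.80 (95% counting interval -0.98 to -0.63). RBL2 (chr16:53468332-53525560, plus strand), which encodes p130, had 1263 counts against 658, or 12.8 TPM against 7.17 TPM, and a log2 ratio of -0.75 (-0.89 to -0.61). RBL1 (chr20:35624752-35724618, minus strand), which encodes p107, had 526 counts against 410 and a log2 ratio of -0.17 (-0.36 to 0.02), an interval that includes 0. RBL1 crossed 0 under other scalings. The summed level of the 3 pocket protein genes was 25.6 TPM in LNCaP and 15.4 TPM in LNCaP-ENZ.

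Among the activators, E2F2 (chr1:23832920-23857712, minus strand) had 748 counts in LNCaP and 1158 in LNCaP-ENZ, or 7.35 TPM against 12.2 TPM. Its log2 ratio of 0.82 (0.69 to 0.95) was the highest of the family. E2F1 (chr20:32263292-32274210, minus strand) had 1935 and 2026 counts, with a log2 ratio of 0.26 (0.17 to 0.35). For E2F3 (chr6:20402137-20493945, plus strand) the counts were 711 and 729 and the log2 ratio 0.23 (0.07 to 0.38). The 3 activators all had ratios above 0, with a summed level of 50.9 TPM in LNCaP and 61.1 TPM in LNCaP-ENZ.

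The repressors parted. E2F4 (chr16:67226068-67232821, plus strand), the main partner of p130, had 1166 counts in LNCaP and 1539 in LNCaP-ENZ, or 28.3 TPM against 40.2 TPM, with a log2 ratio of 0.59 (0.48 to 0.70). E2F5 (chr8:86089619-86126753, plus strand) had 240 counts against 161 and a log2 ratio of -0.38 (-0.68 to -0.09). The atypical E2Fs lay near 0 with intervals that include it: E2F7 (chr12:77415026-77459360, minus strand), with 493 counts against 421, had a log2 ratio of -0.04 (-0.23 to 0.15). E2F8 (chr11:19245610-19263202, minus strand), with 222 counts against 180, had a log2 ratio of -0.11 (-0.40 to 0.18). In LNCaP-ENZ the intervals of E2F1 (41.1 TPM) and E2F4 (40.2 TPM) overlapped, E2F2 came next, and RB1 was level with E2F5 and E2F7.

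**Figure D1:**
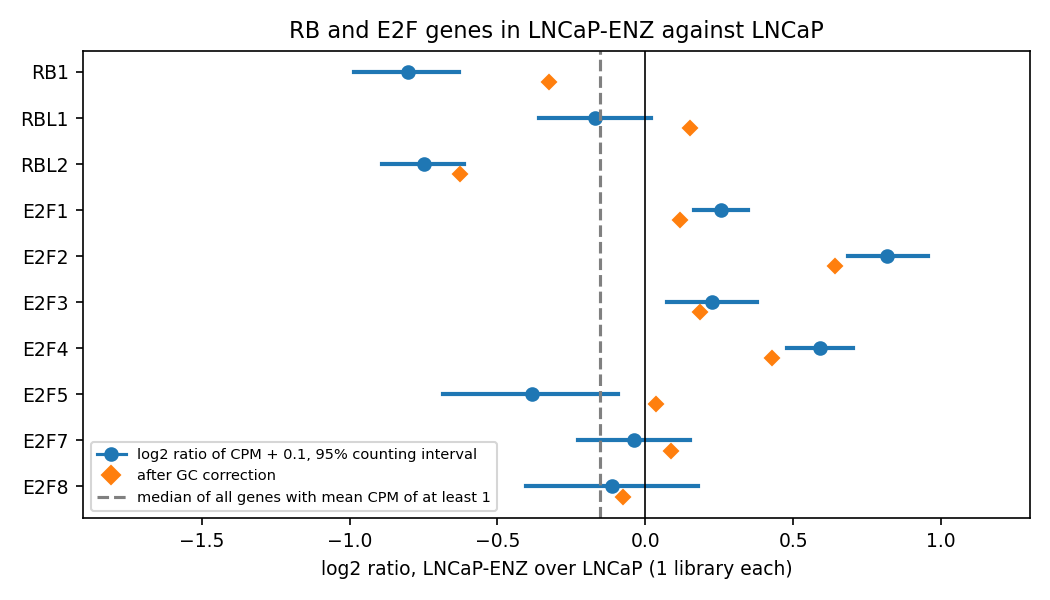
Log2 ratio of LNCaP-ENZ over LNCaP for the 10 RB and E2F genes, 1 library each. Circles are ratios of CPM + 0.1 with 95% counting intervals, diamonds the ratios after the GC correction, and the dashed line the median of all genes expressed at a mean of 1 CPM or more (-0.15); RB1 moves from -0.80 to -0.32 with the correction, RBL2 from -0.75 to -0.63.

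Past 1.5-fold were 2 of 10 members in the higher direction (E2F2 and E2F4) and 2 in the lower (RB1 and RBL2). Over all 14767 genes that reached a mean of 1 CPM, 6.49% were past 1.5-fold higher in LNCaP-ENZ, 24.1% past 1.5-fold lower, and 30.6% past it in either direction. The 2 lower members of 10 are thus near the background share, and the 2 higher members are above it, on a count of 2. No member was past 2-fold, against 11.4% of all genes, 1.84% higher and 9.57% lower. A ratio above 1 was found in 4 of 10 members and in 37.7% of all genes. The family's median log2 ratio was -0.07 and that of all genes -0.15. With edgeR's TMM factors the median of all genes moved to -0.01, and 1601 genes were past 1.5-fold higher and 2621 lower, against 958 and 3554 by library total. With the median of all genes set to 0, RB1 was at -0.65, RBL2 at -0.60, E2F2 at 0.97 and E2F4 at 0.74.

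Ratios in these libraries moved with base composition. Over 12605 genes with a known transcript, the Spearman correlation of the log2 ratio with GC content was 0.37. With transcript length it was -0.24. Both describe genes that share both libraries. The transcripts of RB1 (37.1% GC), E2F5 (38.3%) and RBL1 (40.0%) are AT-rich, and those of E2F1 (61.6%), E2F4 (59.3%) and E2F2 (57.4%) GC-rich. After a loess correction of the ratios for GC content, RB1 was at -0.32 and no longer past 1.5-fold, E2F4 was at 0.43, likewise, and E2F5 was at 0.03 and RBL1 at 0.15, both with the sign turned. RBL2 remained at -0.63 and E2F2 at 0.64. With transcript length in the correction too, RBL2 was at -0.56, within 1.5-fold, and E2F2 at 0.68. Over the 9 alternatives RB1 ranged from -0.88 to -0.30, RBL2 from -0.83 to -0.56, E2F2 from 0.64 to 0.99 and E2F4 from 0.37 to 0.76, while RBL1, E2F5, E2F7 and E2F8 crossed 0. The parts of GC content and length in these differences were not tested.

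Genes that overlap members could share reads with them, because the use of strand in counting is not stated. LPAR6, inside an RB1 intron on the opposite strand, had 7 and 4 counts beside the 790 and 396 of RB1. AKTIP, which overlaps the end of RBL2 on the opposite strand, had 399 counts in LNCaP and 257 in LNCaP-ENZ, and C8orf59, across the end of E2F5, had 421 and 281. Both were lower in LNCaP-ENZ, as were RBL2, E2F5 and 9196 of the 14767 genes that reached a mean of 1 CPM. LOC101928163, inside E2F2 on the opposite strand, had 19 counts in LNCaP and 31 in LNCaP-ENZ. Whether shared reads add to the counts of any member was not tested.

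RB1 was not the lowest gene of its region. Of 10 neighbours on chromosome 13, 8 reached a mean of 1 CPM, all 8 had ratios below 0, and 3 were past 1.5-fold lower, beside 24.1% of all genes. With TMM factors 5 of the 8 lay below 0. The 3 past 1.5-fold were SETDB2, a histone methyltransferase gene, at a log2 ratio of -1.34 (478 counts to 164), CAB39L at -1.09 (419 to 172) and FNDC3A at -1.05 (483 to 204). ITM2B and MED4, both upstream of RB1, had log2 ratios of -0.10 and -0.45, and SUCLA2 of -0.38. RCBTB2, just downstream, had 23 and 20 counts and a ratio of -0.01. The median of the 8 neighbours was -0.41, and -0.04 after the GC correction, when 4 had ratios below 0 and 4 above, and 3 were past 1.5-fold lower.

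The listed genes that E2F factors control split by cell cycle phase. These lists were chosen with earlier results of these data known. Of 25 G1/S targets, which serve replication and nucleotide synthesis, 14 were past 1.5-fold higher in LNCaP-ENZ and 0 lower, beside 6.49% and 24.1% of all genes. Their median log2 ratio was 0.64. Of 17 G2/M targets, which serve mitosis, 9 were past 1.5-fold lower and 0 higher, and the median was -0.62. CDC25A, the phosphatase that activates CDK2, had 423 counts in LNCaP and 816 in LNCaP-ENZ, a log2 ratio of 1.13. MCM5, a subunit of the replicative helicase, had 2044 and 3740 (1.06), and the helicase loader CDC6 had 1133 and 1998 (1.01). At the other end TTK, a spindle checkpoint kinase, had 554 counts and 81, a log2 ratio of -2.56. CENPE, a kinetochore motor, had 273 and 60 (-1.96), and CENPF had 1029 and 250 (-1.84).

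All 17 G2/M targets lay below 0 by library total and 15 with TMM factors, and 20 of 25 G1/S targets lay above 0, and 21 with TMM factors. The median GC content was 50.7% for the G1/S list, 42.1% for the G2/M list and 48.5% for all genes. After the GC correction, 11 G1/S targets were past 1.5-fold higher (median 0.56) and 11 G2/M targets past 1.5-fold lower (median -0.67), against 725 higher and 2348 lower of 12605 genes. Whether the split lies beyond the variation between cultures was not tested, there being 1 library per arm.

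**Figure D2:**
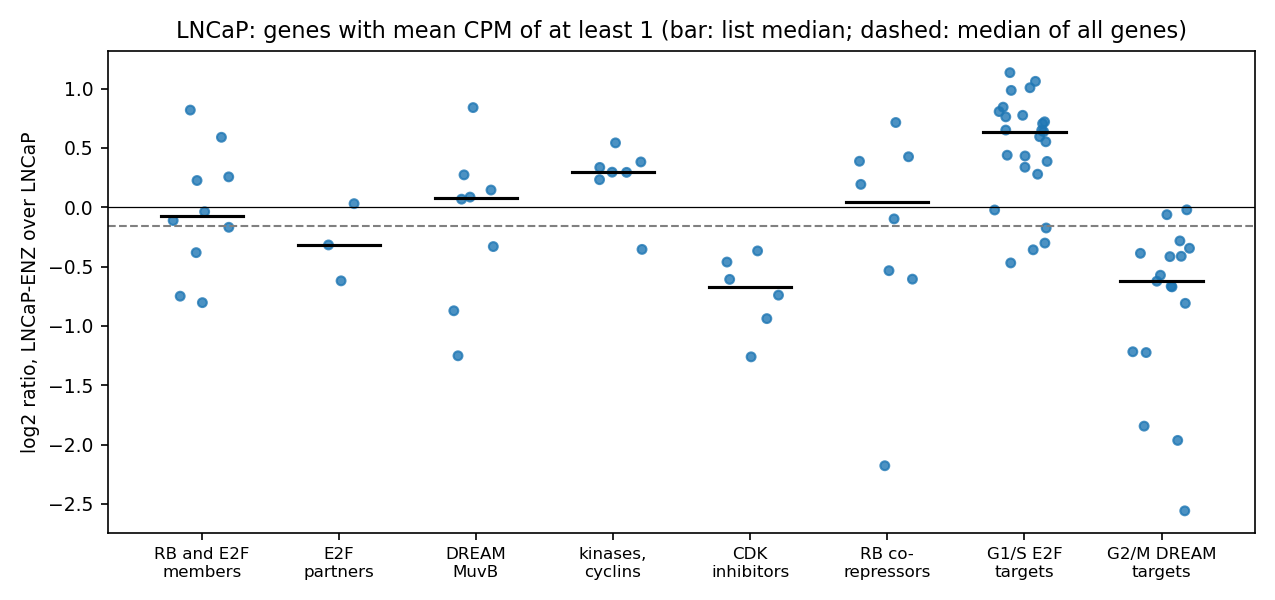
Log2 ratio of LNCaP-ENZ over LNCaP for each gene that reached a mean of 1 CPM in the RB and E2F family and in 7 pathway lists, 1 library each. Bars are list medians and the dashed line is the median of all genes (-0.15); G1/S targets centre on 0.64, G2/M targets on -0.62 and CDK inhibitors on -0.67.

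Upstream of the pocket proteins, 4 CDK inhibitors were past 1.5-fold lower in LNCaP-ENZ by library total, and 0 of the CDKs and cyclins of G1. Of 7 inhibitors, 6 reached a mean of 1 CPM, and all 6 had ratios below 0, as had 9196 of the 14767 genes. The 4 of 6 past 1.5-fold stand beside 24.1% of all genes. Their median log2 ratio was -0.67. The number past 1.5-fold lower was 3 with TMM factors, 2 with DESeq2 size factors and 5 with the GC correction. Beside these stood 2621 and 2474 of 14767 genes, and 2348 of 12605. All 6 stayed below 0 in these settings. CDKN1C (p57) had 216 counts against 78 (-1.26), CDKN2D (p19) 74 against 33 (-0.94), CDKN1B (p27) 1162 against 609 (-0.74) and CDKN1A (p21) 3778 against 2173 (-0.61). Of 8 kinase and cyclin genes, 7 passed the level and 0 were past 1.5-fold by library total. With TMM factors, DESeq2 size factors or the GC correction, 1 was past it, higher, beside 1601, 1755 and 725 of all genes. Cyclin E1 (CCNE1) had 279 counts against 357 (0.54), cyclin D1 (CCND1) 3997 against 4566 (0.38), and CDK6 145 against 99 (-0.36).

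Partners and complex members varied. Of the E2F dimerization partners, TFDP1 had 1118 counts against 1001 (0.03) and TFDP2 1493 against 851 (-0.62). E2F6, a repressor outside pocket control, was at -0.32. In the DREAM and MuvB list 1 of 8 was past 1.5-fold higher, LIN52 with 168 counts against 265 (0.84), and 2 lower, LIN54 with 532 against 254 (-0.87) and MYBL1 with 68 against 24 (-1.25), beside 6.49% higher and 24.1% lower of all genes. MYBL2, which replaces the repressive partners on MuvB in cycling cells, was at 0.07. Of 8 RB corepressor genes, SMARCA2 (438 counts against 631, 0.71) was past 1.5-fold higher, and ARID4A (193 against 36, -2.18) and HDAC2 (1558 against 897, -0.61) lower. The E2F-responsive methyltransferase EZH2 was at -0.28.

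In DU145, knockdown of PAX6 was accompanied by no member change that passed the test. PAX6 itself read 0.839, 1.23 and 1.57 FPKM in shCON and 0.0153, 0.274 and 0.0778 FPKM in shPAX6. The groups did not overlap. Its log2 fold change was -2.69 (SE 0.486) with an adjusted p of 0.0539 (limma on log2 of FPKM + 0.1, Benjamini-Hochberg over 13574 features). In an exact permutation of 6 libraries p was 0.10, two-sided, the smallest that 3 against 3 allow. Of the RB and E2F genes, 0 of 10 were called at an adjusted p under 0.05, against 1.2% of all features (0.177% higher and 1.02% lower in shPAX6). An unadjusted p under 0.05 was reached by 0 members and by 18.3% of features, 4.15% higher and 14.1% lower. The groups overlapped in all 10 members, while they did not overlap in 26.7% of all features, 6.7% higher and 20.0% lower in shPAX6. The members' median log2 fold change was -0.15, beside -0.12 for all features.

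For RB1 the shCON libraries read 6.39, 4.38 and 6.33 FPKM and the shPAX6 libraries 3.18, 9.14 and 5.64 FPKM. The lowest and the highest of the 6 were both shPAX6 libraries, and the log2 fold change was -0.04 (95% interval -0.90 to 0.83). RBL1 read 2.98, 2.10 and 3.43 FPKM in shCON and 2.18, 5.80 and 3.56 in shPAX6. Its log2 fold change was 0.35 (-0.51 to 1.20), and 0.0017 without shPAX6 library 2, the highest of the 6. RBL2 read 8.17, 5.99 and 7.65 FPKM in shCON and 2.03, 7.86 and 5.07 in shPAX6. Its log2 fold change of -0.72 (-1.76 to 0.32) had an adjusted p of 0.45 in limma. Without shPAX6 library 1 it was -0.19, and without library 2 -1.14.

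E2F1 read 32.1, 33.2 and 33.5 FPKM in shCON and 34.3, 25.2 and 32.0 in shPAX6, a log2 fold change of -0.12 (-0.47 to 0.22). E2F2 read 3.96, 4.66 and 4.32 FPKM against 3.05, 4.66 and 3.90, a log2 fold change of -0.17 (-0.66 to 0.32). E2F3 read 7.55, 6.21 and 7.11 FPKM in shCON and 3.15, 7.15 and 4.76 in shPAX6. The shPAX6 libraries 1 and 3 were below all shCON libraries and library 2 lay within them, and the log2 fold change was -0.53 (-1.22 to 0.15), with an adjusted p of 0.39 in limma.

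E2F4 was the steadiest member, with 63.0, 69.6 and 64.6 FPKM in shCON and 65.8, 62.6 and 69.3 in shPAX6. Its log2 fold change of 0.0042 had an interval of -0.27 to 0.28, the narrowest of the family. E2F5 read 4.31, 4.70 and 3.69 FPKM in shCON and 2.93, 3.13 and 3.73 in shPAX6, a log2 fold change of -0.37 (-0.82 to 0.09). Its groups overlapped only through shCON library 3 and shPAX6 library 3. Levels of E2F7 were 1.18, 0.804 and 1.19 FPKM in shCON and 0.834, 2.22 and 1.40 in shPAX6, with a log2 fold change of 0.37 (-0.49 to 1.24). For E2F8 they were 2.72, 2.23 and 3.09 in shCON and 0.574, 3.44 and 2.70 in shPAX6, and the log2 fold change of -0.55 had the widest interval (-1.91 to 0.82). It was 0.19 without shPAX6 library 1.

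**Figure D3:**
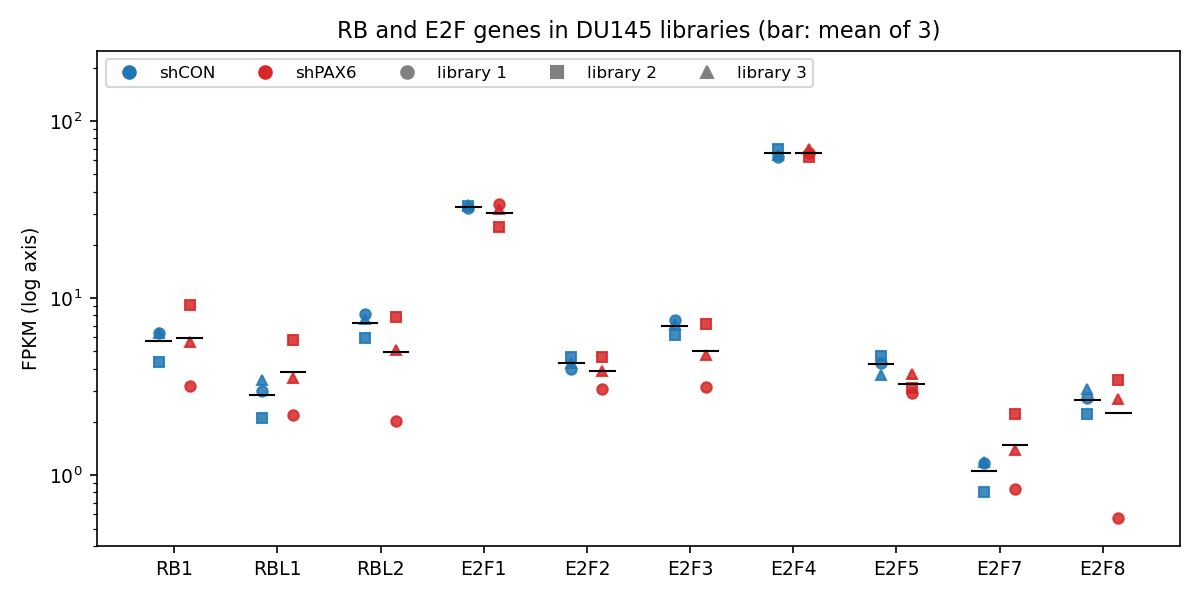
FPKM of the 10 RB and E2F genes in the 6 DU145 libraries, on a log axis, with bars at the mean of 3. shCON and shPAX6 libraries overlap for every gene, and shPAX6 library 1 (circles) and library 2 (squares) lie far apart for RB1, RBL1, RBL2, E2F3, E2F7 and E2F8.

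The shPAX6 libraries differed among themselves more than the shCON libraries did. The log2 range within shPAX6 exceeded that within shCON in 9 of 10 members, E2F5 excepted, and in 84.3% of all features. Over all features the median range was 0.268 in shCON and 0.693 in shPAX6. Library 2 was above library 1 in 8 of 10 members, against 61.6% of features, by 2.39 on the log2 scale for E2F8, 1.90 for RBL2, 1.497 for RB1, 1.37 for RBL1, 1.31 for E2F7 and 1.16 for E2F3. E2F1 (-0.44) and E2F4 (-0.07) went the other way. The Spearman correlation of these differences with GC content was -0.53 over the 10 members, which share the same 2 libraries. That value describes 10 genes and is not a test. E2F5 (38.3% GC) differed by 0.09 and E2F2 (57.4% GC) by 0.59. Over 12009 features with a known GC content, the deviation of a library from the shCON mean was correlated with GC content. The correlation was -0.64 in shPAX6 library 2, -0.60 in shCON library 1 and 0.08 in shPAX6 library 1. With transcript length it was 0.42 in shPAX6 library 2, -0.47 in shPAX6 library 1 and -0.48 in shCON library 2. E2F1 (2690 bases) and E2F4 (2615 bases) have the shortest transcripts of the 10 members. The parts of GC content and length were not tested.

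After a GC correction of each library, E2F1 was at a log2 fold change of 0.23, E2F2 at 0.13 and E2F4 at 0.33, while RB1 was at -0.07, RBL2 at -0.68 and E2F3 at -0.44, and 0 members were called. This correction also takes out each library's overall shift, and the median of all features moved from -0.12 to 0.02. With library medians set equal and no GC correction, E2F1 was at 0.05, E2F2 at 0.0054 and E2F4 at 0.18. RBL2 (-0.49, adjusted p = 0.0477) and E2F3 (-0.52, adjusted p = 0.0118) passed the test when limma weighted the libraries by their spread, a setting that called 4569 features in all, and in no other setting did a member pass. RB1 turned sign in 7 of the settings tried, left-out libraries included, E2F1 and E2F2 in 6 each and E2F4 in 5.

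**Figure D4:**
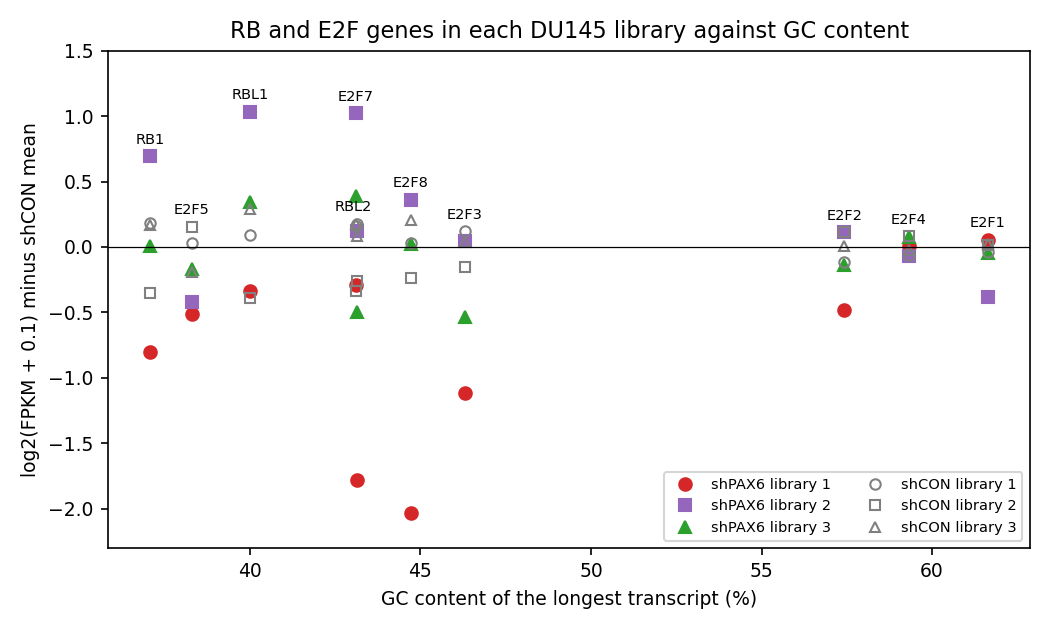
Log2 (FPKM + 0.1) of each RB and E2F gene in each DU145 library, less the mean of the 3 shCON libraries, against the GC content of its longest transcript in percent. Filled symbols are shPAX6 and open symbols shCON libraries; below 50% GC the shPAX6 libraries spread by up to 2.39 (E2F8), and E2F4 at 59.3% GC by 0.145.

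Around the family, 1 of 75 tested pathway genes was called in shPAX6. This was CDKN2B, the gene of the CDK4 and CDK6 inhibitor p15, which fell from 4.81, 5.75 and 5.90 FPKM in shCON to 1.80, 2.50 and 2.22 FPKM in shPAX6. The log2 difference was -1.30 (SE 0.204) with an adjusted p of 0.0384 in limma, lower in 3 of 3 libraries. A call of 1 in 75 is close to the 1.02% of all features called lower. The call ended when any of the 3 shCON libraries or shPAX6 library 3 was left out (adjusted p from 0.186 to 0.288), while the fold change stayed between -1.41 and -1.18. CDKN2A, the neighbouring inhibitor gene, stood at the 98.9th percentile of features by its mean over the 6 libraries and ranged from 346 to 601 FPKM over the 6 libraries, with a log2 fold change of 0.06. In LNCaP it had 150 counts, and 95 in LNCaP-ENZ.

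Among the G1 kinases and cyclins, 0 of 7 tested genes were called. CCND1 read 80.04, 74.5 and 85.4 FPKM in shCON and 107, 162 and 132 in shPAX6. The log2 difference was 0.72, with an adjusted p of 0.0923 in limma. Other settings of limma went both ways. Its adjusted p was 0.025 with the GC correction, 0.0496 with library medians set equal, 0.16 with quantile normalization and 0.31 with the replicate block. It was 0.28 to 0.38 without any 1 shCON library or shPAX6 library 3, 0.012 without shPAX6 library 1 and 0.051 without library 2. CDK6 read 0.693, 0.550 and 0.755 FPKM against 1.06, 2.69 and 1.42 (1.16, adjusted p = 0.165 in limma). The groups did not overlap for either gene. In this list they did not overlap for 2 of 7 genes in the higher direction and 2 in the lower. Of all features, 6.7% did not overlap in the higher direction and 20.0% in the lower. CCNE1 was at -0.70 and CDK4 at -0.27. Of the other CDK inhibitors CDKN1C was at -1.31 and CDKN2C at 0.34, neither called.

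Of the tested partners, TFDP1 read 69.8, 66.3 and 65.7 FPKM in shCON and 34.3, 63.8 and 56.3 in shPAX6, a log2 fold change of -0.43, TFDP2 was at -0.33 and E2F6 at 0.07. FOXM1, the G2/M activator that works with MuvB, was at -0.31, and at -0.03 after the GC correction. Its groups did not overlap, with shPAX6 lower, as in 20.0% of all features. In the corepressor list 0 of 8 were called, with a median of -0.30 and SUV39H1 at -0.34.

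The target genes did not part in DU145. Of 25 G1/S targets 0 were called, 2 had an unadjusted p under 0.05 in the higher and 3 in the lower direction, and the median was -0.03. Of 17 G2/M targets 0 were called, 0 had an unadjusted p under 0.05, and the median was 0.03. The largest values on either side among G1/S targets were CHAF1A, a histone chaperone subunit, at -0.57 (limma adjusted p = 0.081), and CDC25A at 0.54. RRM2, the small subunit of ribonucleotide reductase, was at 0.47 and the helicase subunit MCM2 at -0.41. CENPE was at 0.51 and AURKB at 0.42. Over all 75 pathway genes 15 had an unadjusted p under 0.05, 5 higher and 10 lower, against 18.3% of all features. EZH2 was at 0.10 and not called. The epithelial cadherin CDH1 fell in shPAX6 (6.14 ± 0.844 to 1.26 ± 0.526 FPKM, n = 3, a log2 difference of -2.28 with an adjusted p of 0.0334 in limma), and EPCAM was at -0.75. No feature at all, CDH1 included, was called without shCON library 1 or without shCON library 3.

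**Figure D5:**
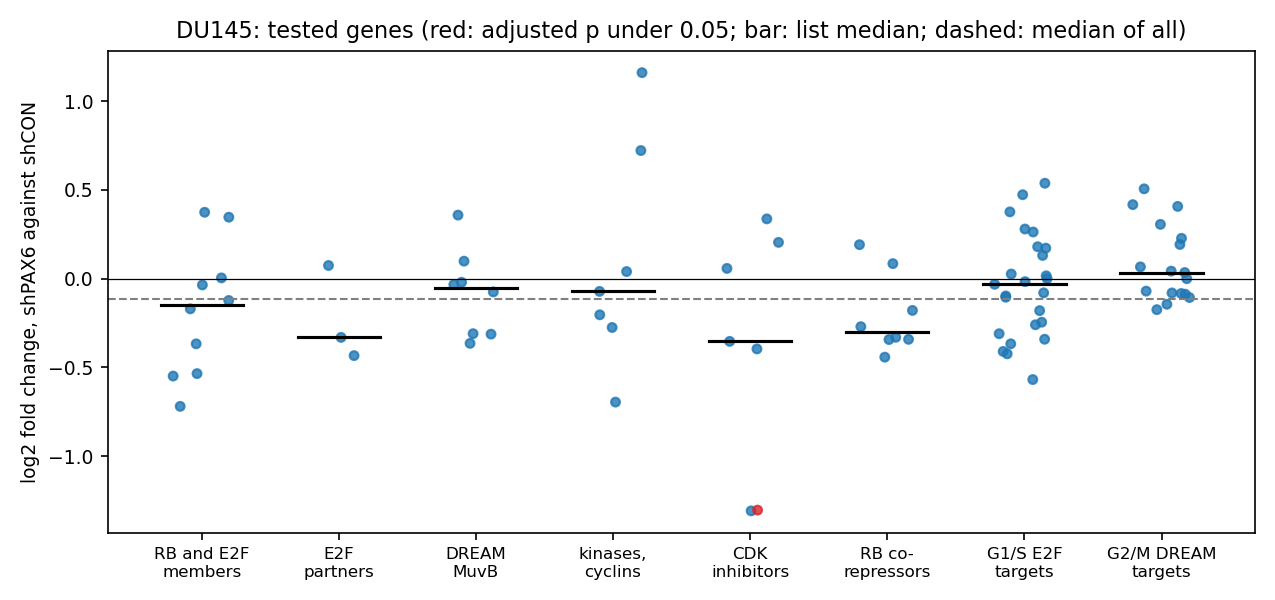
Log2 fold change of shPAX6 against shCON for each tested gene of the RB and E2F family and of 7 pathway lists, from 3 libraries a group. Bars are list medians and the dashed line the median of all tested features (-0.12); the red point is CDKN2B, the call among them, at -1.30, and G1/S and G2/M targets centre on -0.03 and 0.03.

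The comparisons share no library and differ in cell line, treatment and unit, and the difference between them was not tested. Side by side, RBL2 was at -0.75 in LNCaP-ENZ and -0.72 in shPAX6, RB1 at -0.80 and -0.04, E2F2 at 0.82 and -0.17, and E2F4 at 0.59 and 0.0042. E2F5 was at -0.38 and -0.37, within 1.5-fold in LNCaP-ENZ, where its sign turned with the GC correction, and not called in shPAX6.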

How the data were processed

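RNA sequencing of LNCaP, LNCaP-ENZ and DU145 cells was analysed. According to the methods, reads were aligned to GRCh37 with HISAT2 and quantified with StringTie, and the submitters' processing notes also name STAR. The labels and the methods differ on the library kit, and the methods state more LNCaP replicates than the labels. For LNCaP the authors deposited raw counts and TPM. For DU145 the header names no unit, and the values the authors deposited were taken to be FPKM.

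Counts of the LNCaP libraries were divided by their totals (CPM) and compared as log2 ratios with a pseudocount of 0.1 CPM and exact 95% intervals (Clopper-Pearson), with no test, and 1.5-fold was used as the limit. DU145 values were tested with limma 3.58.1 (R 4.3.3, lmFit, eBayes with a trend, two-sided) on log2(FPKM + 0.1) for features averaging 0.5 FPKM or more, adjusted after Benjamini and Hochberg, at 0.05. The fit was tested on simulated data in which both groups had the spread of the shCON libraries. That test does not cover the larger spread among the shPAX6 libraries. Alternatives included edgeR 4.0.16 TMM and DESeq2 1.42.0 size factors. GC content came from the longest transcript in the lifted GENCODE annotation (88.5% of tested DU145 features, 85.4% of LNCaP genes), and loess corrections used a span of 0.5. The GC and length corrections in DU145 also took out each library's overall shift, whereas in LNCaP the median ratio was put back. LNCaP corrections and length corrections were added after seeing the data.

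Groups and replicate numbers came from the sample titles. The replicate numbers did not pair the libraries. The family, the pathway lists and the rule for named genes (all members, PAX6, calls, up to 3 largest values per list and direction, all genes near RB1 and all markers) were chosen with earlier results of these data known. CDKN1A and MYBL2 in LNCaP were named after their values were seen. Most list values are summarised, and some genes that the rule covers are not reported here.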

Additional observations from a re-analysis of the deposited data

How the results depend on the processing

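In DU145, 163 features were called in the fit as reported, 0 of the 10 RB and E2F members and 1 of 75 pathway genes. The call among the pathway genes ended without the filter on low values (0), with each library rescaled to the same total (0, and 96 features in all) and with the replicate block (0). With library medians set equal there were 2 pathway calls and 100 features (28 higher and 72 lower, against 24 and 139 as reported). Array weights gave 4569 features (1544 and 3025), 27 pathway genes and 2 members. The GC correction gave 4 pathway calls and 100 features higher and 122 lower. The length correction gave 911 features and 10 pathway genes, and GC and length together 768 features (401 and 367) and 12 pathway genes, both chosen after seeing the data. At an unadjusted p under 0.05, 2 members passed with array weights, the GC correction, the length correction, without shPAX6 library 1 or without shPAX6 library 2, and 6 with GC and length together. Leaving out each library in turn gave between 0 and 920 features and between 0 and 8 pathway genes. The count was 920 without shPAX6 library 1, 903 without library 2 and 10 without library 3, and 0, 5 and 0 without shCON library 1, 2 and 3, and 0 members were called in each.

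Signs of values near 0 turned. RB1 was at 0.14 with medians set equal, 0.16 with quantile normalization, 0.038 with array weights and 0.17 with the length correction. E2F1 was at 0.053 with medians set equal, 0.23 with the GC correction, 0.042 with the length correction and 0.21 with both, and E2F2 at 0.0054, 0.13, 0.041 and 0.21, and at 0.019 with quantile normalization. E2F4 was at -0.081 with libraries rescaled and -0.0085 with quantile normalization, and E2F8 at 0.0044 with array weights. With libraries rescaled, E2F6 was at -0.0099 and CDKN2A at -0.027, and CDKN2A at -0.15 with quantile normalization. Over the left-out libraries RB1 ranged from -0.40 to 0.35, E2F1 from -0.21 to 0.0066, E2F4 from -0.032 to 0.046, E2F8 from -1.004 to 0.19, E2F6 from -0.059 to 0.23, MYBL1 from -0.058 to 0.71 and CDKN2A from -0.13 to 0.28. The causes were not tested.

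The replicate numbers share only a name. Deviations from the group means of same-numbered libraries correlated at -0.17, -0.37 and 0.05. With the replicate block 0 features were called, at 1568 with an unadjusted p under 0.05, 0 members and 0 pathway genes. The replicate block with the GC correction gave 7 features, 0 pathway genes and 0 members, with E2F1 at 0.23 and E2F2 at 0.13.

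In LNCaP, members past 1.5-fold higher were 2 as reported and 1 (E2F2) with a pseudocount of 1 CPM, the deposited TPM, the GC correction, or GC and length together. Members past 1.5-fold lower were 2 as reported, 1 with DESeq2 size factors (RB1) or the GC correction (RBL2), and 0 with GC and length. Over all genes 958 were higher as reported, 1601 with TMM factors, 1755 with DESeq2 size factors, 1670 with the median set to 0 and 4573 without a filter. Lower were 3554 as reported, 7859 without a filter, 2348 with the GC correction and 2314 with GC and length. The numbers of G1/S targets higher and G2/M targets lower stayed within 1.5 times in each alternative. RN7SK took 12.3% and 13.0% of the LNCaP counts. The single library per arm, the unknown DU145 depth and the spread of the shPAX6 libraries limit these results.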
